A study of Mus musculus with 8 samples.

Results

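The interferon-stimulated genes described here are *Isg15*, *Ifit1*, *Ifit3*, *Irf1*, *Irf7*, *Ifih1*, *Ddx58*, *Oasl2*, *Bst2* and *Rsad2*, 10 of the 52325 gene identifiers in each library. They were chosen by name as members of the antiviral interferon program, and each symbol matched a single mouse identifier of GENCODE M21. RNA was taken from costal (rib) chondrocytes, the cartilage cells released by collagenase from the ribs of mice 7 d old, in 4 wild-type and 4 *Mir140*-null libraries. *Mir140*-null mice carry a CRISPR/Cas9 deletion of the *Mir140* locus, which encodes the cartilage miRNA miR-140. The deletion was made in zygotes and is not limited to cartilage. Founders of mixed C57BL/6 and CBA/ca background were backcrossed to C57BL/6J, the strain given for all libraries, and wild-type and null lines were then derived from heterozygous crosses. The labels name no treatment of the mice or cells. The labels do not say whether a library comes from 1 mouse or from pooled mice, so p-values measure only the spread between these libraries.

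Interferons are secreted proteins that alarm cells to viral nucleic acid. Type I interferon binds the receptor *Ifnar1*/*Ifnar2*, whose kinases *Jak1* and *Tyk2* activate transcription factors, *Stat2* with *Irf9* among them, that switch on target genes through a DNA word called the interferon-stimulated response element (ISRE). Interferon gamma signals through *Ifngr1*/*Ifngr2*, *Jak1* and *Jak2* and acts through another word, the gamma-activated site (GAS). Many target genes are also kept at a low level without infection, and some are sensors or transcription factors that feed back on the same pathway.

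The ISRE was present in the RefSeq promoters of 7 of the 10 genes. Promoters here are windows of GRCm38.p6 from 250 bases before to 50 bases after each transcription start, and all 10 genes matched, with 11 windows because *Irf1* has a pair. The word GAAANNGAAA, where N is any base, was searched on both strands, overlapping copies included, and 3.44% of all 32851 promoter windows hold it. The shorter GAS word TTCNNNGAA, which reads the same on both strands, was found in the windows of *Irf1* and *Bst2* and in 8.3% of all windows. The sequences below show words that lie before the start in some of these genes. Each is 30 bases on the strand of the gene, 5′ to 3′, with the matching word or overlapping words in capitals, and in *Rsad2*, *Ifit3* and *Ifit1* the ISRE word is read on the other strand.
*Isg15* ISRE, chr4:156200871-156200900, minus strand: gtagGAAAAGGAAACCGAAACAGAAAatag
*Bst2* ISRE, chr8:71537580-71537609, minus strand: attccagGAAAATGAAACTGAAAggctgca
*Rsad2* ISRE, chr12:26456553-26456582, minus strand: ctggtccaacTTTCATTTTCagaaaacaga
*Ifit3* ISRE, chr19:34583397-34583426, plus strand: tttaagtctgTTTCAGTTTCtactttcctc
*Ifit1* ISRE, chr19:34640794-34640823, plus strand: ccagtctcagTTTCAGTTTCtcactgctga
*Irf1* GAS, chr11:53769914-53769943, plus strand: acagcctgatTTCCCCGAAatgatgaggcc
The *Isg15* promoter holds 3 overlapping copies of the ISRE word in a run of 22 bases that ends 57 bases before the start. *Ifit1* and *Ifit3* each hold a further copy upstream of the start, and in *Bst2* the GAS and ISRE words overlap. In *Ddx58* and *Ifih1* the word lies after the start. *Irf7* and *Oasl2* held neither word in this window, which says only that these letters are not there.

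The study concerns miR-140, so the annotated 3′UTRs of the 10 genes were also read for 7-base matches to its seeds. The mature mouse miR-140-3p of RefSeq (chr8:107551288-107551308, plus strand, GRCm38.p6) is printed with its seed, bases 2 to 8, in capitals, followed by the matches in the 3′UTRs, with the 7 matching bases in capitals.
miR-140-3p: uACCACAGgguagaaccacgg
*Irf1*, match to that seed (miR-140-3p.2): ccaggtgaCTGTGGTttggactc
*Rsad2*, match to that seed (miR-140-3p.2): aaatgtgcCTGTGGTtccttagc
*Rsad2*, overlapping match to the seed shifted by a base (miR-140-3p.1): taaatgtgCCTGTGGttccttag
*Rsad2*, further match to miR-140-3p.1: aaaatcttCCTGTGGaagcattg
*Ifih1*, match to miR-140-3p.1: tgctttagCCTGTGGcttcttca
*Ifih1*, match to miR-140-5p: aagtactcAACCACTaaaccatt
*Bst2*, match to miR-140-5p: gatgtggaAACCACTagggggct
Each of the 3 words was present in 2 of the 10 genes. Among the 12988 tested genes with an annotated 3′UTR, 19.0% held the miR-140-3p.2 word, 20.2% the miR-140-3p.1 word and 10.9% the miR-140-5p word. *Isg15*, *Ifit1*, *Ifit3*, *Irf7*, *Ddx58* and *Oasl2* held none of them. A match is a description of the sequence and not evidence of binding.

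Levels were given by the authors as TPM, a transcript abundance scaled for transcript length and to a fixed total in each library, so that levels of different genes can be compared. The number of reads behind each value is unknown, and the paper gives only a lower bound on the reads of each sample. Every library summed to 1000000 TPM. Between 17128 and 17950 genes reached 0.5 TPM in wild-type libraries and between 15800 and 17435 in *Mir140*-null libraries, with the lowest numbers in *Mir140*-null replicates 1 and 2. The share of TPM from mitochondrially encoded genes was 4.06% to 6.99% in wild-type and 8.41% to 10.1% in *Mir140*-null libraries. *Mir140* was listed at 0 in 7 libraries but had 8.86 TPM in that labelled *Mir140*-null replicate 2. Its annotated hairpin of 70 bases is shorter than the reads of 75 bases, so this value does not check the labels.
The cells carried the collagens of cartilage: *Col2a1* lay between 34418 and 61630 TPM. The 10 chondrocyte markers summed to 57567 to 73279 TPM in the wild-type libraries and 41674 to 57541 TPM in the *Mir140*-null ones. Most of that sum was *Col2a1*. Of these markers, 8 had a log2 fold change below 0. It was above 0 for *Acan* (0.88, Benjamini-Hochberg adjusted p of limma = 0.0107) and *Sox9* (0.25). *Mir140*-null replicates 1 and 2 lay below the other 6 libraries for 6 of 7 genes of perichondrium and fibroblasts. *Col1a1* was 47.8 and 50.1 TPM in this pair and 793 to 1544 TPM in the other 6 libraries, and *Thy1* was 2.36 and 1.94 TPM against 15.2 to 30.2 TPM. The exception, *Pdgfra*, was 34.5 and 36.5 TPM in the pair, 31.5 and 34.3 TPM in the other *Mir140*-null libraries and 11.8 to 19.8 TPM in wild-type libraries (higher, Benjamini-Hochberg adjusted p of limma = 0.00846). Results are therefore also given without this pair. Of the markers of immune cells, which express many of these genes, the pan-leukocyte gene *Ptprc* was between 0.0470 and 0.590 TPM, and 8 lymphocyte markers summed to 0.450 to 1.98 TPM, with *Nkg7* at 0 in every library. The 7 neutrophil markers summed to 2.04 to 5.98 TPM in the wild-type libraries and 6.84 to 10.3 TPM in the *Mir140*-null ones, without overlap, and *Camp* among them was higher (log2 fold change 1.21, Benjamini-Hochberg adjusted p of limma = 0.0238). The markers did not all go this way. Of the 4 that passed the filter, 3 had a log2 fold change above 0, and that of *Ltf* was -0.20. Among these 3, *S100a8* passed through the *Mir140*-null libraries. It reached 0.5 TPM in 1 wild-type library and in all 4 *Mir140*-null libraries. Of the 3 that did not pass the filter, *Mpo* and *Elane* had lower means in *Mir140*-null libraries and *Ngp* a higher mean. The 10 macrophage and myeloid markers summed to 37.5 to 63.5 TPM in the wild-type libraries and 71.1 to 135 TPM in the *Mir140*-null ones. Most of that sum was *Cd14* and *Cd68*, and *Cd14* was highest in the same pair (116 and 107 TPM). The part of these cells in the results below was not tested, and in bulk RNA fewer cells of a type and less RNA per cell cannot be told apart. Of the 5 macrophage and myeloid markers that passed the filter, *Cd14* was higher and *Lyz2* and *Itgam* were lower. *Lyz2* passed the filter through the wild-type libraries, since it reached 0.5 TPM in all 4 of them and in 1 *Mir140*-null library.

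None of the 10 interferon-stimulated genes differed between genotypes at an adjusted p under 0.05, while 16.9% of all genes tested did (10.5% higher and 6.4% lower). The gene nearest to it was *Ifit1*, higher in every *Mir140*-null library than in any wild-type library, and the largest log2 difference was that of *Irf7*, with a lower mean. The log2 fold change was above 0 for 7 of the 10 genes and below 0 for *Irf7*, *Ifit3* and *Oasl2*, with a median of 0.25, against -0.01 over all 17177 genes tested; with quantile normalization *Oasl2* turned and 8 genes were above 0. Genotypes were compared with limma (moderated statistics, two-sided) on log2(TPM + 1), with Benjamini-Hochberg adjustment over every gene that reached 0.5 TPM in 4 or more libraries. All 10 genes passed this filter, although *Ifih1* did so through the *Mir140*-null libraries, since it reached 0.5 TPM in 1 wild-type library and in all 4 *Mir140*-null libraries. At an unadjusted p under 0.05 from limma, *Ifit1* and *Irf7* passed, 20% of the 10 genes, where 33.9% of all genes tested did. *Ifit1* was also the only member whose genotypes did not overlap, and 25.9% of all genes tested had no overlap. Without the pair of *Mir140*-null replicates 1 and 2, again 0 of the 10 genes passed the adjusted p of limma, and 1 passed the unadjusted p.

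**Figure D1:**
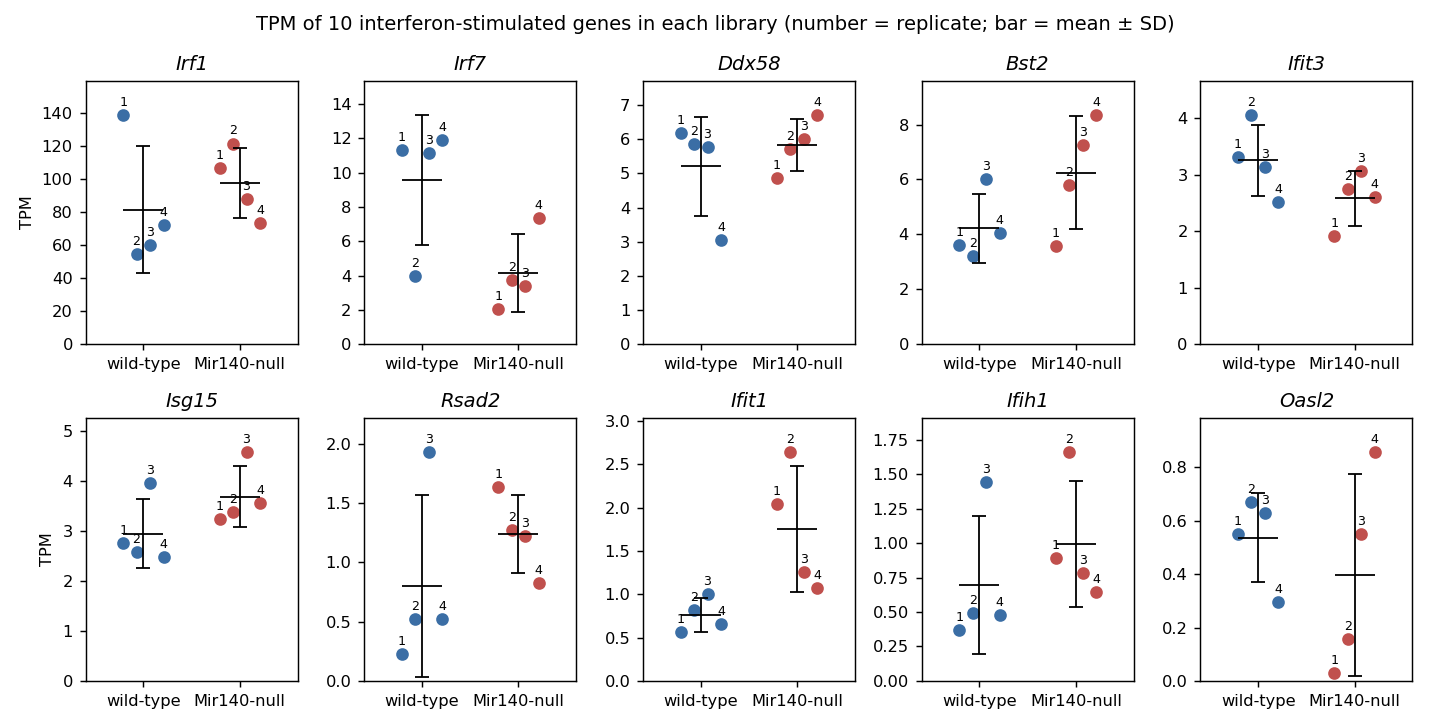
TPM (y axis, linear and from 0, a separate scale for each gene) of the 10 genes in the 4 wild-type and 4 *Mir140*-null libraries; numbers beside the points are replicate numbers, and bars show the mean ± SD. Only *Ifit1* has no overlap between the genotypes, and 3 of the 4 wild-type libraries lie above every *Mir140*-null library for *Irf7*.

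*Irf1* held the highest levels of the group, and the transcription factors *Irf1* and *Irf7* varied most within genotypes on the log2(TPM + 1) scale. *Irf1* (ENSMUSG00000018899, chromosome 11 from 53770014 to 53778374), a transcription factor that interferon gamma induces and that binds ISRE-like words, was the most abundant member in every library. It was measured at 138, 54.8, 60.2 and 72.4 TPM in wild-type replicates 1 to 4. In *Mir140*-null replicates 1 to 4 it was measured at 107, 121, 88.0 and 73.6 TPM. Wild-type replicate 1 held the highest value of all, above every *Mir140*-null library. The other wild-type libraries lay below every *Mir140*-null library, so the overlap comes from wild-type replicate 1 alone. The means were 81.5 ± 38.7 and 97.4 ± 20.98 TPM (SD, n = 4), which is a log2 difference of 0.33 (95% interval -0.35 to 1.01, Benjamini-Hochberg adjusted p of limma = 0.463). *Irf1* made up 63.2% to 84.1% of the summed TPM of the 10 genes. Its level lay above that of 92.7% of the genes tested in wild-type libraries.

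*Irf7* (ENSMUSG00000025498, chromosome 7 from 141262706 to 141266481) is the factor that amplifies production of type I interferon. It was measured at 11.3, 3.95, 11.1 and 11.9 TPM in wild-type replicates 1 to 4, against 2.07, 3.73, 3.38 and 7.37 TPM in its *Mir140*-null counterparts. In the wild-type group, 3 libraries lay close together and above every *Mir140*-null library, whereas wild-type replicate 2 lay within the *Mir140*-null range. The means were 9.57 ± 3.77 and 4.14 ± 2.27 TPM (SD, n = 4), and the log2 fold change was -1.04 (standard error, SE, 0.40; 95% interval -1.95 to -0.13, Benjamini-Hochberg adjusted p of limma = 0.105). The call depended on wild-type replicate 2: without it, the log2 fold change was -1.37 and passed the threshold (Benjamini-Hochberg adjusted p of limma = 0.0388). Without the pair of *Mir140*-null replicates 1 and 2 it was -0.71 (Benjamini-Hochberg adjusted p of limma = 0.416).

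The sensors of viral RNA were low and overlapped between genotypes. *Ddx58* (ENSMUSG00000040296, chromosome 4 from 40203773 to 40239828), which encodes the cytosolic RNA helicase RIG-I, was measured at 6.18, 5.85, 5.77 and 3.04 TPM in wild-type replicates 1 to 4. The *Mir140*-null replicates were at 4.86, 5.72, 6.02 and 6.70 TPM. All but wild-type replicate 4 thus lay within a narrow range, and the log2 fold change was 0.17 (95% interval -0.31 to 0.64, Benjamini-Hochberg adjusted p of limma = 0.607). *Ifih1* (ENSMUSG00000026896, chromosome 2 from 62595798 to 62646255) encodes MDA5, the sensor of long double-stranded RNA. Its wild-type replicates 1 to 4 had 0.371, 0.496, 1.44 and 0.480 TPM, and its *Mir140*-null replicates 1 to 4 had 0.891, 1.66, 0.780 and 0.647 TPM. Wild-type replicate 3 was above all *Mir140*-null libraries but replicate 2, while the other 3 wild-type libraries lay below all of them. Its difference on the log2 scale was 0.25 (95% interval -0.27 to 0.76, Benjamini-Hochberg adjusted p of limma = 0.468).

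The IFIT proteins, which bind foreign or incompletely capped RNA, had differences of opposite sign. *Ifit1* (ENSMUSG00000034459, chromosome 19 from 34640871 to 34650009) was measured at 0.567, 0.819, 1.004 and 0.652 TPM in wild-type replicates 1 to 4. In *Mir140*-null replicates 1 to 4 it was measured at 2.04, 2.64, 1.25 and 1.07 TPM. Every *Mir140*-null library lay above every wild-type library, by the smallest margin for *Mir140*-null replicate 4, and the highest values were those of the pair that stood apart. The means were 0.761 ± 0.193 and 1.75 ± 0.729 TPM (SD, n = 4), a ratio of 2.30. On the log2(TPM + 1) scale, which understates changes at this level, the difference was 0.61 (SE 0.20, 95% interval 0.16 to 1.06, Benjamini-Hochberg adjusted p of limma = 0.0653). It passed the threshold without *Mir140*-null replicate 4 (log2 fold change 0.74, Benjamini-Hochberg adjusted p of limma = 0.0458). Without the pair it was 0.30 (Benjamini-Hochberg adjusted p of limma = 0.252).
*Ifit3* (ENSMUSG00000074896, chromosome 19 from 34583531 to 34588731) was measured at 3.32, 4.05, 3.14 and 2.51 TPM in wild-type replicates 1 to 4. The *Mir140*-null replicates were at 1.91, 2.74, 3.07 and 2.596 TPM, within or below the wild-type range. On the log2 scale the genotypes differed by -0.25 (95% interval -0.62 to 0.13, Benjamini-Hochberg adjusted p of limma = 0.318). Of all stretches of 75 bases in the annotated *Ifit3* transcripts, 41.1% occur also in *Ifit3b*, its neighbor on chromosome 19, so the split of reads between the genes is uncertain. The sum of both genes was 4.72 ± 0.999 TPM over the wild-type and 3.39 ± 0.661 TPM over the *Mir140*-null libraries (SD, n = 4), with ranges that overlap. For *Ifit1*, 5.19% of such stretches occur in another gene, and for the other 8 members 0%.

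The remaining effectors were measured at a few TPM or less. *Isg15* (ENSMUSG00000035692, chromosome 4 from 156199424 to 156200818) encodes a ubiquitin-like protein that is attached to other proteins. Its wild-type replicates 1 to 4 had 2.75, 2.58, 3.96 and 2.47 TPM, and its *Mir140*-null replicates 1 to 4 had 3.23, 3.37, 4.57 and 3.56 TPM. All but wild-type replicate 3 among the wild-type libraries lay below the lowest *Mir140*-null library. The log2 fold change was 0.26 (95% interval -0.12 to 0.63, Benjamini-Hochberg adjusted p of limma = 0.302).
*Bst2* (ENSMUSG00000046718, chromosome 8 from 71534255 to 71537456) encodes tetherin, which holds budding virus particles at the cell surface. Its wild-type replicates 1 to 4 had 3.60, 3.20, 6.00 and 4.06 TPM, and its *Mir140*-null replicates 1 to 4 had 3.58, 5.80, 7.25 and 8.34 TPM. *Mir140*-null replicates 3 and 4 lay above every wild-type library, whereas *Mir140*-null replicate 1 was within the wild-type range. Its difference on the log2 scale was 0.45 (95% interval -0.14 to 1.04, Benjamini-Hochberg adjusted p of limma = 0.251).
*Rsad2* (ENSMUSG00000020641, chromosome 12 from 26442746 to 26456452) encodes viperin, an enzyme that makes an antiviral nucleotide. Its wild-type replicates 1 to 4 had 0.228, 0.520, 1.93 and 0.521 TPM, and its *Mir140*-null replicates 1 to 4 had 1.64, 1.27, 1.22 and 0.8288 TPM. Wild-type replicate 3 was the highest library of all and the other 3 wild-type libraries the lowest. On the log2 scale the genotypes differed by 0.39 (95% interval -0.22 to 0.99, Benjamini-Hochberg adjusted p of limma = 0.336).
*Oasl2* (ENSMUSG00000029561, chromosome 5 from 114896936 to 114912234), of the oligoadenylate synthetase family, had the lowest mean TPM of the members in both genotypes, though not the lowest value in every library. Its wild-type replicates 1 to 4 had 0.550, 0.672, 0.631 and 0.297 TPM, and its *Mir140*-null replicates 1 to 4 had 0.0282, 0.156, 0.551 and 0.858 TPM. The lowest values were those of the pair that stood apart and the highest that of *Mir140*-null replicate 4. The log2 fold change was -0.17 (95% interval -0.62 to 0.28, Benjamini-Hochberg adjusted p of limma = 0.575) and turned to 0.15 without the pair (Benjamini-Hochberg adjusted p of limma = 0.594).

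**Figure D2:**
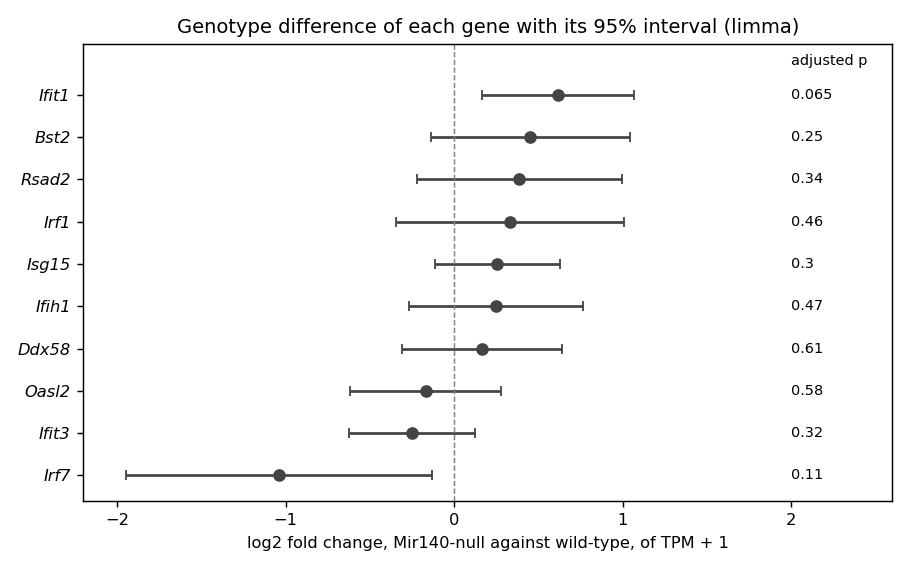
Log2 fold change of TPM + 1 (x axis), *Mir140*-null against wild-type, for each of the 10 genes (y axis); points are limma estimates, bars their 95% intervals, and the adjusted p stands at the right. The intervals of *Ifit1* (0.16 to 1.06) and *Irf7* (-1.95 to -0.13) leave out 0 before adjustment, and those of the other 8 genes include it.

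The order of levels was similar at its ends in both genotypes. In wild-type libraries the mean TPM ran from *Irf1* (81.5) through *Irf7* (9.57), *Ddx58* (5.21), *Bst2* (4.22), *Ifit3* (3.25) and *Isg15* (2.94) to *Rsad2* (0.8002), *Ifit1* (0.761), *Ifih1* (0.697) and *Oasl2* (0.537). The ranges of neighbors overlapped except between *Irf1* and *Irf7* and between *Isg15* and *Rsad2*. In *Mir140*-null libraries *Bst2* (6.24) came after *Irf1* (97.4), and *Irf7* (4.14) came after *Ddx58* (5.82). There the ranges of neighbors overlapped except between *Irf1* and *Bst2* and between *Isg15* and *Ifit3*. Of the genes tested, *Oasl2* lay above 2.69% in wild-type libraries, *Ifit1* above 8.09% and *Isg15* above 33.8%, so the effectors belong to the lower part of the measured genes.
Wild-type replicate 3 was the highest wild-type library for *Isg15*, *Ifit1*, *Ifih1*, *Bst2* and *Rsad2*, 5 of the 10 genes, and the lowest for none. It also had the highest *Ptprc* of all libraries (0.590 TPM), and the part of immune cells in this was not tested. *Irf1* did not follow it: wild-type replicate 1 had the highest *Irf1*. *Mir140*-null replicate 1 was the lowest *Mir140*-null library for 6 of the 10 genes and *Mir140*-null replicate 4 for the other 4. The SD within genotypes of log2(TPM + 1) was 0.63 for *Irf7* and 0.48 for *Irf1*, where genes of a like level had medians of 0.28 and 0.23. It was 0.21 for *Isg15* and for *Ifit3*, below the median of 0.31 at their level.
The 5 genes outside the lists whose log2(TPM + 1) over the 8 libraries was most like the mean standardized level of the 10 genes were *Slc17a5* (Pearson's r = 0.98), *Tbc1d8* (0.94), *4930570D08Rik* (0.93), *6530409C15Rik* (0.92) and *Dmap1* (0.92). They were picked from all genes tested for this likeness, so r is a description of these 8 libraries only.

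**Figure D3:**
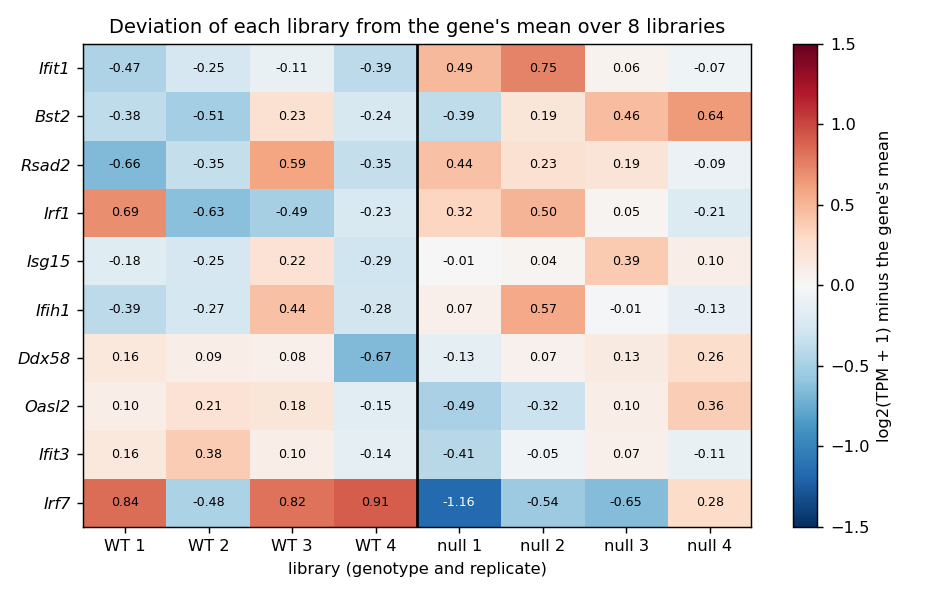
Deviation of log2(TPM + 1) from each gene's mean over the 8 libraries, for the 10 genes (rows, ordered by log2 fold change) in the 4 wild-type (WT) and 4 *Mir140*-null libraries (columns); red is above and blue below the mean. Wild-type replicate 3 is the highest wild-type library for 5 of the 10 genes, and *Irf7* holds the lowest deviation, in *Mir140*-null replicate 1.

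The rest of the pathway was read from lists of 114 further genes, 76 of which passed the filter. Of these, 13 were higher and 2 lower in *Mir140*-null libraries, 19.7% against the 16.9% of all genes tested, and their median log2 fold change was 0.05. Without the pair of *Mir140*-null replicates 1 and 2, 6 were higher and 0 lower, while the same fit called 357 genes higher and 210 lower over all genes.
The interferons themselves were near 0. None of the 19 listed ligand genes passed the filter, and the highest value of any of them in any library was 0.564 TPM, that of *Ifnk*. *Ifnb1*, the type I interferon made by most cells that sense virus, was listed at 0 in 5 libraries and reached 0.341 TPM at most.
Among the receptors, *Ifngr2* and *Il10rb* rose. *Ifngr2*, the signaling chain of the interferon gamma receptor, had 22.1, 17.4, 17.9 and 22.3 TPM in wild-type replicates 1 to 4, against 28.1, 31.1, 27.4 and 34.6 TPM in the 4 *Mir140*-null replicates, with no overlap. On the log2 scale this was a rise of 0.58 (SE 0.13, Benjamini-Hochberg adjusted p of limma = 0.0226). *Il10rb*, a chain shared by the receptors of interferon lambda and interleukin 10, rose from 2.28 ± 0.677 to 4.50 ± 0.718 TPM (SD, n = 4), which is a log2 difference of 0.76 (Benjamini-Hochberg adjusted p of limma = 0.0285). The other chains did not pass: the log2 fold change was -0.07 for *Ifnar1* (95% interval -0.64 to 0.49), 0.35 for *Ifnar2* (-0.00011 to 0.71) and -0.05 for *Ifngr1* (-0.61 to 0.50), where the signs of *Ifnar1* and *Ifngr1* each turned in 4 of 18 alternative fits.
Of the signal transducers, the kinases *Jak2* and *Jak1* rose. *Jak2* had 22.7, 27.1, 19.8 and 21.97 TPM in wild-type replicates 1 to 4, against 51.8, 46.2, 40.5 and 40.4 TPM in the 4 *Mir140*-null replicates, a log2 fold change of 0.94 (SE 0.13, Benjamini-Hochberg adjusted p of limma = 0.00729). *Jak1* rose from 45.5 ± 10.1 to 69.3 ± 4.66 TPM (SD, n = 4), which is a log2 difference of 0.62 (Benjamini-Hochberg adjusted p of limma = 0.0309). The transcription factors *Stat2* and *Irf9* did not pass the test. Their log2 fold changes were 0.07 for *Stat2*, which turned in 2 alternative fits (95% interval -0.39 to 0.52) and 0.23 for *Irf9* (95% interval -0.24 to 0.70). None of the 6 negative regulators passed, and the most abundant of them, *Socs3*, was at 264 ± 32.7 and 204 ± 58.3 TPM (SD, n = 4).
Of the 12 tested genes of nucleic acid sensing, *Ikbke* and *Ticam1* rose and none fell, 16.7% against the 16.9% of all genes tested. *Ikbke*, a kinase that activates *Irf3* and *Irf7*, was measured at 9.87, 11.1, 8.26 and 11.8 TPM in wild-type replicates 1 to 4. In the *Mir140*-null replicates it was at 86.2, 54.9, 23.4 and 23.9 TPM, with the highest values in the pair that stood apart. On the log2 scale the genotypes differed by 1.89 (SE 0.40, Benjamini-Hochberg adjusted p of limma = 0.0205), and 1.14 without the pair (Benjamini-Hochberg adjusted p of limma = 0.0330). *Ticam1*, the adaptor of Toll-like receptor 3, rose by 0.49 on the log2 scale (Benjamini-Hochberg adjusted p of limma = 0.0480).
Among the other interferon regulatory factors, *Irf4* and *Irf2* rose. *Irf4*, known from lymphocytes, went from 0.723 ± 0.275 to 2.32 ± 0.356 TPM (SD, n = 4), which is a log2 difference of 0.96 (Benjamini-Hochberg adjusted p of limma = 0.00993). *Irf2*, which competes with *Irf1* for the same DNA words, rose by 0.59 on the log2 scale (Benjamini-Hochberg adjusted p of limma = 0.0328).
Of 41 tested genes in the list of other interferon-stimulated genes, 5 rose and 1 fell, 14.6% against the 16.9% of all genes tested. Their median log2 fold change was 0.03. *Ifitm3*, which blocks entry of viruses from endosomes, rose from 24.2 ± 5.23 to 54.3 ± 12.1 TPM (SD, n = 4), which is a log2 difference of 1.13 (Benjamini-Hochberg adjusted p of limma = 0.0117). *Samhd1*, which degrades the nucleotides needed for reverse transcription, rose by 0.87 and *Ifi35* by 0.87 on the log2 scale (Benjamini-Hochberg adjusted p of limma = 0.00753 and 0.00925). *Znfx1* rose by 0.69 and the exonuclease *Isg20* by 0.39 (Benjamini-Hochberg adjusted p of limma = 0.0292 and 0.0226). *Herc6*, the mouse ligase that attaches *Isg15* to proteins, fell by 0.79 on the log2 scale (Benjamini-Hochberg adjusted p of limma = 0.0401). It was the only one of the 5 genes of *Isg15* conjugation and removal that passed, 20% against the 16.9% of all genes tested. *Herc6* had 3.64, 1.635, 2.99 and 2.92 TPM in wild-type replicates 1 to 4, against 0.658, 1.627, 1.32 and 1.12 TPM in the 4 *Mir140*-null replicates, so that replicate 2 of both genotypes had nearly the same value although the groups did not overlap. Of the 15 genes called, 5 still passed without the pair: *Jak2*, *Ikbke*, *Samhd1*, *Ifi35* and *Znfx1*. *Jak2*, *Samhd1* and *Ifi35* passed in all 18 alternative fits, whereas the other 12 lost their call in between 1 fit (*Irf4*, *Ifitm3*) and 12 fits (*Ticam1*).

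**Figure D4:**
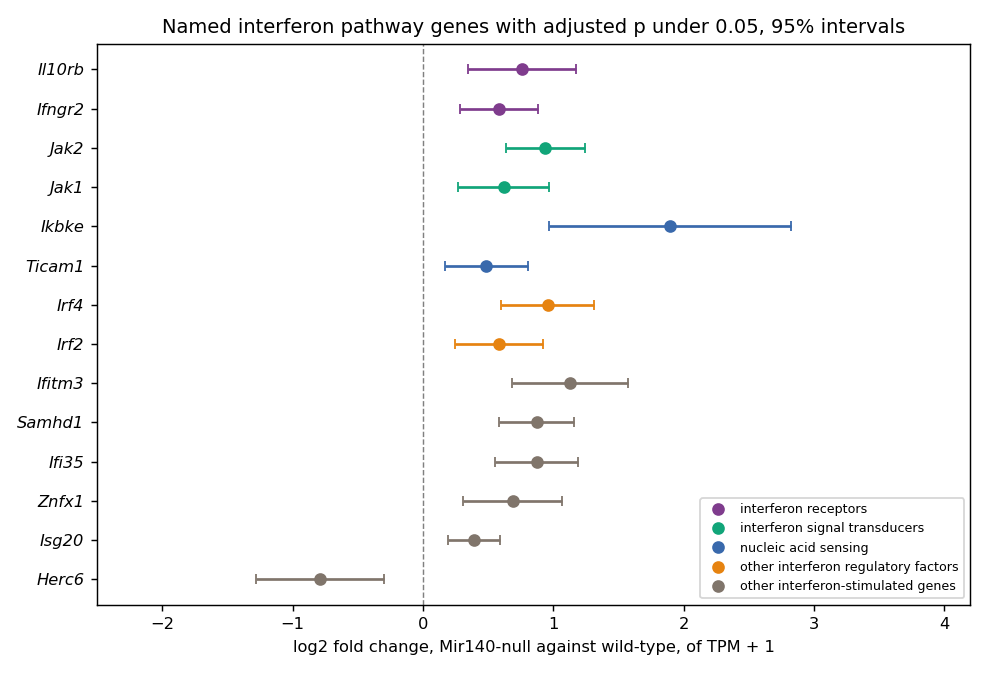
Log2 fold change of TPM + 1 (x axis), *Mir140*-null against wild-type, of the named further interferon pathway genes with an adjusted p under 0.05 (y axis, grouped by list); points are limma estimates and bars their 95% intervals. *Ikbke* has the largest increase, 1.89, and *Herc6* is the gene below 0 among those shown.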

How the data were processed

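The authors mapped single-end reads of 75 bases from stranded poly(A) libraries to the mm10 transcriptome with Salmon and deposited TPM per Ensembl gene and library. The submitters' processing notes also name FastQC 0.11.7 and DESeq2. The Salmon version and the step from transcripts to genes are not given in the sources used here. Identifiers on several lines (540 lines per file) held the same value and were counted once. TPM carry no read counts, so the exact depth of each library is unknown and no counting interval was computed. The paper gives only a lower bound on the reads of each sample. No libraries were identical.

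Symbols and positions came from GENCODE M21 (mm10), and promoters and the mature miRNA from RefSeq (GRCm38.p6). Genotype was the only term in limma 3.58.1 (R 4.3.3, mean-variance trend, pseudocount 1, called at an adjusted p under 0.05). The study's own test needs counts and was not used on TPM. The fit was tested on simulated data. Other steps used Python 3.11.15 with pandas 2.3.3 and matplotlib 3.10.9.

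Results of some listed genes are not reported here, although the counts include them. The 10 genes and all lists were chosen with earlier results of these data known. Named from the lists were 8 core ligand, receptor and transducer genes, up to 5 called genes of smallest p per list (the 2 most abundant where none was called), and the 5 genes most like the members. *Cxcl10*, *Irf5*, *Irf8*, *Mx2* and the marker genes were named after their values were seen. Alternatives were other scalings (quantile normalization, median ratios, or TPM rescaled over nuclear protein-coding genes), a pseudocount of 0.1, all genes unfiltered, only genes averaging 5 TPM, a replicate block, 1 factor of unwanted variation from residuals, sample quality weights, each library left out, and, added after seeing the data, *Mir140*-null replicates 1 and 2 left out together.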

Additional observations from a re-analysis of the deposited data

Results flagged for a closer look

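In groups of 4 libraries, 4 of the 66 groups of named genes held a library far from the other 3, by Dixon's ratio of the gap to the range, and chance flags about 1 in 20. *Irf7* was 3.95 TPM in wild-type replicate 2, whose nearest wild-type library was at 11.1 TPM. *Ifih1* was 1.44 TPM in wild-type replicate 3, with the next library at 0.496 TPM. *Ddx58* was 3.04 TPM in wild-type replicate 4, with the next at 5.77 TPM. *Ifnar2* was 16.7 TPM in wild-type replicate 2, with the next at 11.6 TPM. The causes were not tested.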

How the results depend on the processing

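None of the 10 genes was called in the reported fit. *Ifit1* made 1 member called higher with TPM rescaled over nuclear protein-coding genes and with 1 factor of unwanted variation, and omitting libraries singly gave 0 to 1 called higher (*Ifit1*) and 0 to 1 called lower (*Irf7*). Over the alternatives the adjusted p of limma ran from 0.0246 to 0.252 for *Ifit1* and from 0.0388 to 0.416 for *Irf7*. Of the refits of single members, 167 kept direction and call, 4 gained a call and 3 turned: *Oasl2* to 0.0053 with quantile normalization and to 0.15 without the pair of *Mir140*-null replicates 1 and 2, and *Ddx58* to -0.029 without wild-type replicate 4 (up to 0.25 when a single library was omitted and 0.28 without the pair). No filter, the filter at a mean of 5 TPM, the replicate block and the factor of unwanted variation leave each log2 fold change as it was. In those fits only the call could change.
Of the other pathway genes, 13 were higher and 2 lower; no filter gave 8 and 0, a filter at a mean of 5 TPM 0 lower, quantile normalization 1 lower, 1 factor of unwanted variation 4 lower, leaving out the pair 6 and 0, and leaving out single libraries 5 to 10 higher and 0 to 3 lower. Over all genes, 1797 higher and 1100 lower became 977 and 539 with no filter, 605 lower at a mean of 5 TPM, 2016 lower with 1 factor, 357 and 210 without the pair, and 779 to 1553 higher and 419 to 1214 lower without single libraries. The filter at a mean of 5 TPM kept 4 members and moved the median log2 fold change of all genes by 0.12; the other settings moved it by less than 0.1.
Same-numbered libraries did not deviate together (correlations from -0.0091 to 0.069), so no pairing by number was visible. This cannot show whether they were collected or prepared together. The replicate block gave 671 genes higher and 454 lower, 6 pathway genes higher, and no member.
Directions also turned for *Ifnar1* (-0.19 without *Mir140*-null replicate 3 but 0.11 with quality weights, 0.05 without wild-type replicate 2, 0.13 without *Mir140*-null replicate 1, 0.27 without the pair), *Ifngr1* (-0.16 without wild-type replicate 4 but 0.12 with quality weights, 0.08 without wild-type replicate 1, 0.16 without *Mir140*-null replicate 1 and 0.16 without the pair), *Ptpn11* (-0.037 with quantile normalization, -0.028 without wild-type replicate 1) and *Stat2* (-0.026 without wild-type replicate 4 and -0.027 without *Mir140*-null replicate 2, with 0.24 as the highest). The causes were not tested. The exact depth of each library is unknown, and 4 libraries a group limit the precision.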

Other observations

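The following genes were picked after their values were seen. *Cxcl10*, a chemokine that interferon gamma induces, was the most abundant gene of the interferon lists, at 959, 330, 537 and 516 TPM in wild-type and 243, 258, 365 and 332 TPM in *Mir140*-null replicates 1 to 4. Its log2 fold change was -0.88 (limma with Benjamini-Hochberg adjusted p = 0.0788). Wild-type replicate 1, which had the highest *Irf1*, had also the highest *Cxcl10*. *Irf8*, a factor of myeloid cells, was 3.65 ± 1.43 and 1.503 ± 0.876 TPM (SD, n = 4). *Mx2*, annotated as a polymorphic pseudogene in GENCODE M21, was 2.12 ± 1.10 and 0.689 ± 0.524 TPM. *Irf5* was 3.12 ± 0.511 and 5.36 ± 1.49 TPM. The genotypes did not overlap for *Irf8*, *Mx2* or *Irf5*, and none of the 3 passed the adjusted p of limma (0.0705, 0.0759 and 0.0655). Of the 76 further pathway genes tested, 28.9% had no overlap, and of all genes tested 25.9%.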
